A study of Mus musculus with 12 samples.

Results

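The genes described here were Ccl2, Ccl7, Ccl8 and Ccl12, which encode the mouse ligands of the chemokine receptor CCR2, and Ccr2, which encodes the receptor. They were taken by symbol, 5 of the 27457 gene rows of a single-cell RNA sequencing (scRNA-seq) count table, of which 26938 had a count. All 5 were measured. MC38, a mouse colon carcinoma line, was injected under the skin of female mice aged 8 to 12 weeks at injection, and each mouse received 200 µg of antibody once, into the peritoneum, either an isotype control or one against PD-1 (aPD1), the inhibitory receptor of T cells. Tumors were taken 48 h later, frozen, dissociated, sorted to a mixture of 90% CD45+ and 10% CD45- cells, tagged with hashtag antibodies and pooled 4 to a library (10x Genomics 5′ chemistry). The hosts were inbred C57BL/6J (B6) mice or F1 offspring of C57BL/6J with 1 strain of the Collaborative Cross (CC), inbred mice derived by crossing several founder strains: CC001/UncJ, CC002/UncJ, CC007/UncJ, CC036/UncJ, CC075/UncJ, CC079/TauUncJ or CC080/TauUncJ. All F1 hosts therefore carried at least 1 B6 copy of every gene described.

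There were 48 tumors, 1 isotype and 1 aPD1 tumor of each of 2 strains in each of 12 pools: 8 tumors of CC001, 4 of CC007, and 6 each of B6, CC002, CC036, CC075, CC079 and CC080. The study classed CC001, CC002 and CC075 F1 hosts as responders to aPD1 (10 isotype and 10 aPD1 tumors) and CC036, CC079 and CC080 F1 hosts as non-responders (9 and 9) by how tumors grew in separate animals. The class is not among the labels, which give the strain. B6 and CC007 tumors (10) had no class. The class is a property of a strain, so tumors of 1 class come from only 3 strains.

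CCR2 is a G protein-coupled receptor on classical monocytes and on cells that have recently derived from them. Its ligands are small secreted chemokines that draw these cells out of the bone marrow and into inflamed tissue and tumors, where they become macrophages. CCL2 (MCP-1) is the best known ligand, CCL7 (MCP-3) also binds other C-C receptors, CCL12 (MCP-5) is a mouse gene without a direct human counterpart, and CCL8 (MCP-2) has been described in mice chiefly as a ligand of CCR8, so that its part in CCR2 signalling in mice is less certain.

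The 4 ligand genes lie side by side on the + strand of chromosome 11 (GRCm38): Ccl2 at chr11:82035577-82037452, Ccl7 at chr11:82045712-82047525, Ccl12 at chr11:82101845-82103399 and Ccl8 at chr11:82115185-82116799. The span of 81223 bases holds 5 protein coding genes, the 4 members and the eosinophil chemokine gene Ccl11. Each ligand transcript has 3 exons, and no pair of ligand transcripts shared a run longer than 23 bases. Ccr2 lies on chromosome 9 at chr9:124101918-124109140.

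RefSeq promoter windows matched 3 of the 5 members, Ccl12, Ccl8 and Ccr2. Those of Ccl12 and Ccl8 are shown because these genes are neighbours with unlike levels across the macrophage clusters. They are the 250 bases before the start site (GRCm38.p6, + strand, 5′ to 3′), chr11:82101595-82101844 and chr11:82114935-82115184, with TATAAA in capitals:
Ccl12: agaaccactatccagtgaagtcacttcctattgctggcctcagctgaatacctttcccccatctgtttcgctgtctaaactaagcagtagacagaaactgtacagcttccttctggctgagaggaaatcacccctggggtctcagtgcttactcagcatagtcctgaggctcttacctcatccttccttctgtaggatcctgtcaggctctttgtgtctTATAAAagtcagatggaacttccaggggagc
Ccl8: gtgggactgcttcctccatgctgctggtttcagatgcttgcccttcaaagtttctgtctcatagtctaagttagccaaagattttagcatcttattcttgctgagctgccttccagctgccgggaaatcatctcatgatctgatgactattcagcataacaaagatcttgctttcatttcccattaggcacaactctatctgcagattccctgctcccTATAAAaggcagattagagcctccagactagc
TATAAA began 31 bases before the start of Ccl12 and 32 bases before that of Ccl8. It was present on either strand in 12.4% of 32851 promoter windows of 250 bases. GAGGAA, a core of sites for the myeloid factor PU.1, was also present in both (either strand; 23.3% of windows). The letters TGANTCA (AP-1; 6.75% of windows), TTCNNNGAA (STAT; 7.02%), GGGCGG (GC box; 32.7%) and TTNNGNAA (C/EBP; 36.8%), the interferon-stimulated response element (2.98%) and the NF-kB consensus (7.25%) had no match in either window.

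The 48 tumors held 93126 cells, from 53 to 3082 a tumor, with a median of 3333.5 UMIs (unique molecular identifiers, 1 for each captured transcript) per cell. The authors' 27 clusters were named here from marker genes, and clusters 2, 4, 5, 9, 15, 17, 19, 21, 26 and 27 were named monocyte/macrophage (68059 cells, macrophages from here on, 30 to 2394 a tumor, 46554 to 11778425 UMIs a tumor). Of 87940 distinct cell barcodes, 4990 were seen in more than 1 library. No hashtag was used for both treatments, so hashtag and treatment cannot be told apart. In CC080, the isotype tumor of pool 3 and the aPD1 tumor of pool 4 carry the same animal identifier. The CC007 aPD1 tumor of pool 6 had only 30 macrophages.

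The sort set the mixture of cells, so the shares of UMIs below describe the sorted cells and not the whole tumor. Among the sorted cells, all 4 ligands were mainly macrophage transcripts. Macrophages held 94.85% of all Ccl2 UMIs, 97.5% of Ccl7, 98.66% of Ccl12 and 96.51% of Ccl8. They also held 88.13% of Ccr2 UMIs, and most of the rest (6.732%) lay in cluster 14, named conventional type 2 dendritic cells (cDC2). Among cells thinned to 1000 UMIs, the share of macrophages with at least 1 UMI was 29.41% for Ccl2, 15.85% for Ccl7, 16.25% for Ccl12, 4.019% for Ccl8 and 32.13% for Ccr2 (without thinning 44.79%, 25.41%, 27.47%, 8.017% and 58.25%). T/NK clusters, which should lack the ligands, gave 1.689%, 0.8081%, 1.134% and 0.784% for the 4 ligands. Cluster 12, one of them, stood apart with 15.2% for Ccl2 and 6.2% each for Ccl7 and Ccl12, and its summed macrophage markers (7644.53 CPM) exceeded its T/NK markers (2025.12 CPM). The other 6 T/NK clusters ranged from 0.2273% to 1.484% for Ccl2, 0.2569% to 0.6924% for Ccl7, 0.1692% to 1.038% for Ccl12 and 0.5076% to 0.8408% for Ccl8, the shares taken here as background from free RNA. Over all T/NK cells the share was 9.48% for Ccr2, which some T and NK cells express. Median depth before thinning was 3481 UMIs per macrophage and 1968 per T/NK cell. Outside the macrophages, the thinned share for Ccl2 was 10.81% in cluster 20 (unnamed; 1.685% of Ccl2 UMIs), 9.23% in cDC2 (2.497%), 9.107% in fibroblasts (cluster 22; 0.2424%) and 7.19% in granulocytic cells (cluster 16; 0.04623%). The granulocytic share rests on only 153 of 529 cells, those that reached 1000 UMIs. Without thinning it was 4.348%, and the median over the 7 tumors with at least 20 of these cells was 0 CPM. Fibroblasts also had 5.893% for Ccl7 and 5.179% for Ccl8.

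The ligands were not spread evenly over the macrophages. Levels below are CPM, the summed counts of a cluster scaled to a total of 1000000 UMIs, as the median over tumors with at least 20 of its cells. They are descriptions without a test, since the clusters were made from the same cells and genes. Ccl2 was highest in cluster 21, whose leading genes were interferon-induced (Ifit3, Ifit2, Rsad2, Cxcl10), and in cluster 9, led by Lyve1, Cbr2, Fcna, Cd163 and Folr2, genes of tissue-resident macrophages, with 1407 CPM in both. It was 915.2 CPM in cluster 2 (Ly6i, Clec4n, Cd14, Spp1), 763.8 in cluster 26 (C1qa, C1qb, C1qc, Ms4a7), 693.0 in cluster 4 (Chil3, Ace, Vcan, Plac8, genes of monocytes) and 345.5 in cluster 5 (Cxcl9, Clec5a, Cfb). The interquartile ranges of macrophage clusters next to each other in the order of medians overlapped, except those of clusters 9 and 2 and those of the lowest, clusters 19 (260.7 CPM) and 15 (14.82).

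Ccl7 had its highest level in cluster 9 (1561 CPM), followed by cluster 21 (874.0), cluster 26 (577.5) and cluster 27 (565.7), which was led by Gpnmb, Mmp12 and Arg1. It was low in the monocyte-like cluster 4 (65.2 CPM), where Ccl2 was not. Ccl12 was highest in cluster 21 (1064 CPM) and cluster 26 (735.5), and cluster 26 alone held 54.04% of its UMIs. It was 47.46 CPM in cluster 4.

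Ccl8 was the most restricted member. Cluster 9 made up 1.097% of cells and held 27.44% of Ccl8 UMIs, at 1494 CPM (range 554.4 to 11810 over 20 tumors). Cluster 26 held another 49.64% at 193.0 CPM, and no other macrophage cluster reached 50 CPM. Outside the macrophages, fibroblasts had a median of 164.7 CPM over 9 tumors. Ccl8 was itself among the leading genes of cluster 9, and Ccl12 of cluster 26.

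Ccr2 ran in another order. It was highest in cluster 5 (678.1 CPM), cluster 4 (593.5) and cluster 2 (537.3), lower in cluster 21 (461.7) and cluster 9 (448.3), and 272.1 CPM in cluster 26, the cluster with the most Ccl12 and Ccl8 UMIs. cDC2 had 308.5 CPM. Cluster 24, which was left unnamed and was led by the NK cell genes Ncr1, Klrb1c and Klra8, had 277.3 CPM.

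**Figure D1:**
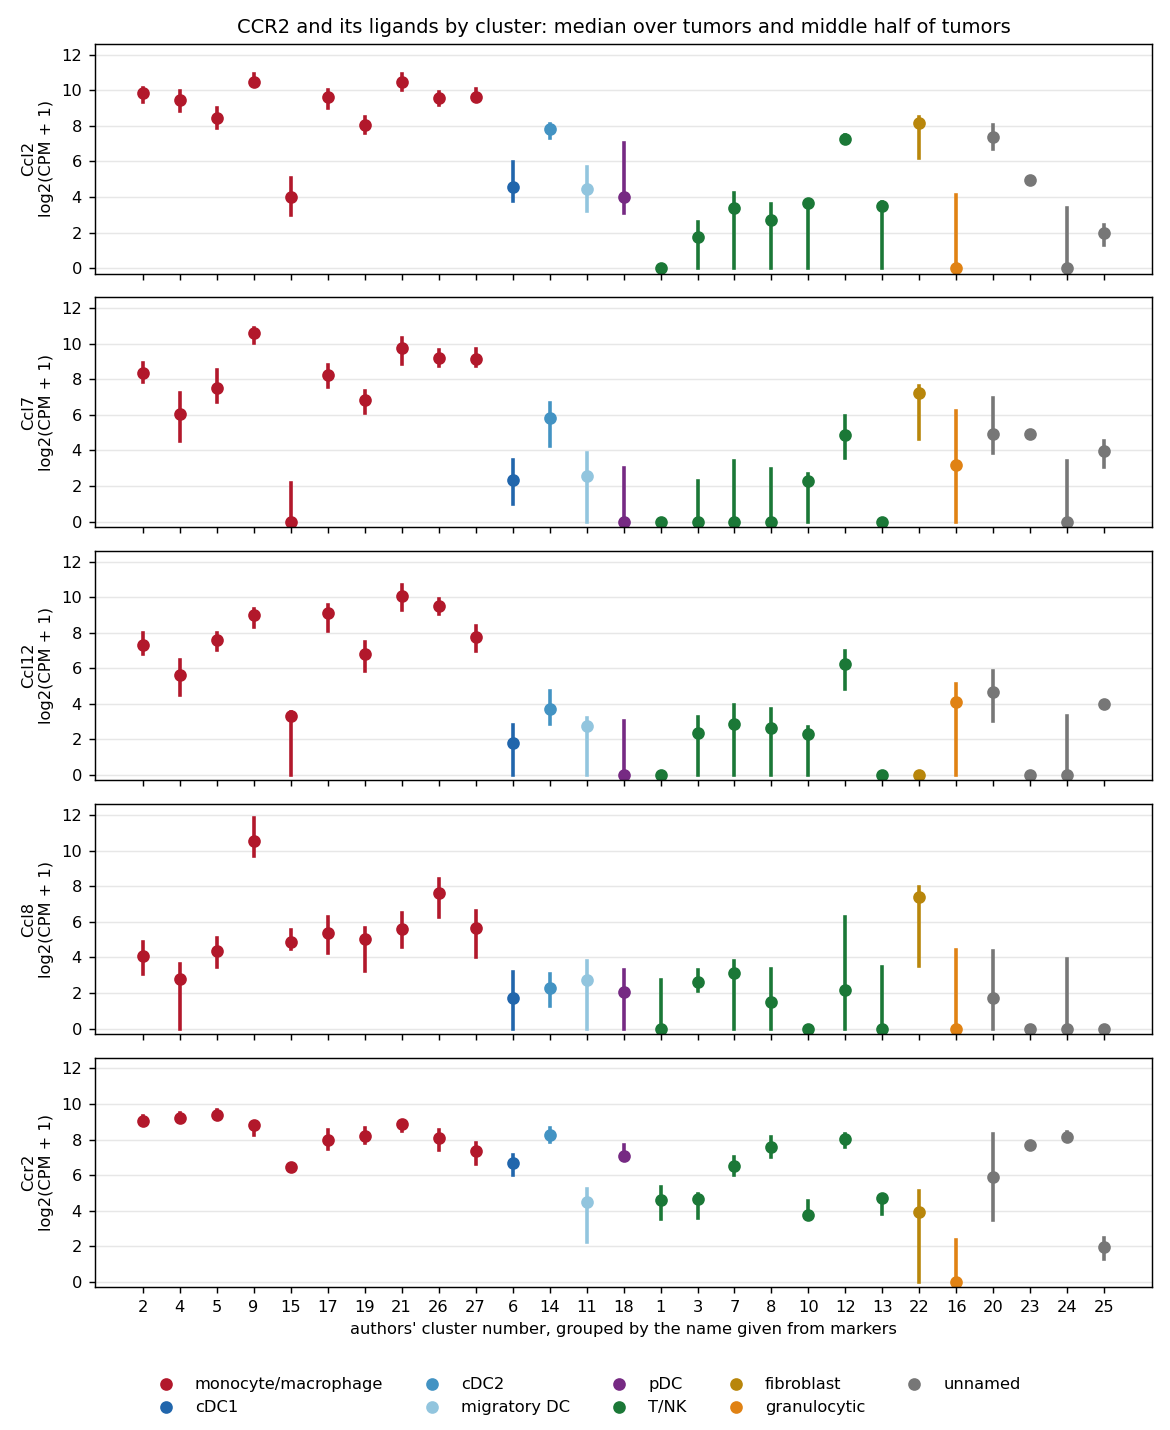
Level of each gene, as log2(CPM + 1), in the 27 clusters on the x axis, coloured by the name given from markers; points are medians over tumors with at least 20 cells of the cluster and bars the interquartile range. The highest ligand points belong to macrophage clusters, Ccl8 peaks in cluster 9 (median 1494 CPM), and Ccr2 peaks in clusters 5, 4 and 2.

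Across the 27 clusters the genes of most similar pattern, by Pearson correlation of log2(CPM + 1) among 13050 genes of at least 10 CPM in a cluster, were Ccl7 (0.971), Lyz2 (0.965) and Clec4a1 (0.961) for Ccl2. They were Ccl2 (0.971), Apoe (0.962) and C3ar1 (0.96) for Ccl7. For Ccl12 they were Apoe (0.949), Ccl7 (0.941) and C1qc (0.936). Ccl8 was nearest to Cbr2 (0.905), Gm16104 (0.88) and Pf4 (0.824). Ccr2 was nearest to Naip5 (0.824), Ptpre (0.82) and Ppp1r21 (0.799), none of them a chemokine gene. The clusters share libraries, so these values are a description.

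Within single macrophages Ccl2, Ccl7 and Ccl12 tended to occur together. Over all macrophages Ccr2 was less frequent in ligand-positive cells than in the others, though often found in the same cells. Among 63780 macrophages thinned to 1000 UMIs, 68.37% of cells with a Ccl7 UMI also had Ccl2, against 22.07% of the other macrophages. Of cells with Ccl12, 56.33% had Ccl2 (others 24.19%), and of cells with Ccl7, 44.42% had Ccl12 (others 10.95%). Each of these 3 shares was higher among the ligand-positive cells in 46 of 46 tumors with at least 20 such cells.

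Ccr2 went the other way. It was found in 16.43% of Ccl8-positive macrophages and 32.79% of the rest, in 25.39% against 33.4% for Ccl7, in 23.72% against 33.77% for Ccl12, and in 29.95% against 33.04% for Ccl2. The share with Ccr2 was higher among the positive cells in only 2 of 43 tumors for Ccl8, 4 of 46 for Ccl7, 2 of 46 for Ccl12 and 13 of 46 for Ccl2. Within clusters 2, 5 and 26 the gap was smaller: for Ccl7, 36.08% against 39.49%, 46.17% against 49.4% and 16.16% against 20.59%. In cluster 21 it was 29.12% against 37.33%. In cluster 9, 16.52% of Ccl8-positive cells and 39.94% of the others had Ccr2, while Ccl7-positive cells had it in 33.56% and the others in 30.14%.

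The next question was whether these genes differ between the response classes in macrophages. Counts were summed over the macrophages of each tumor, so that fewer cells of a high cluster and less RNA per cell cannot be told apart in these sums. Cluster 26, low in Ccr2, made up 30.6% of the pooled macrophages of responder isotype and 27.57% of responder aPD1 tumors, against 24.42% and 23.3% in non-responder tumors. The monocyte-like cluster 4, high in Ccr2, made up 5.567% and 5.293% against 8.195% and 7.093%, and cluster 2, also high, 22.7% and 31.27% against 23.8% and 27.6%. By strain, the share of cluster 26 was 31.04% in CC001, 30.63% in CC002 and 23.26% in CC075, against 18.18% in CC036, 27.15% in CC079 and 24.25% in CC080, so that the classes overlapped. The part of these shares in the Ccr2 difference of the sums was not tested, and differences within clusters are given further on. All 5 members passed the filter on low counts. The sums held a median of 6218142 UMIs in responder and 6943402 in non-responder tumors. Ccr2 was lower in responder strains, and the ligands did not pass the test. In the 20 responder tumors Ccr2 ranged from 224.1 to 598.4 CPM with a median of 326.9, and in the 18 non-responder tumors from 255.2 to 679.4 with a median of 507.1. The groups overlapped: 19 of 20 responder tumors lay below the non-responder median, 3 lay below every non-responder tumor, and 4 non-responder tumors lay above every responder tumor. The log2 difference, responder minus non-responder, was −0.48 ± 0.12 (SE; 0.717-fold, 95% interval 0.606 to 0.847; edgeR adjusted p = 0.0121). Ccr2 was thus 1 of 5 members called at an adjusted p under 0.05, where 6.56% of the 11873 genes tested were called and 2.46% were called lower in responder strains. This fit has no strain term and takes tumors of 1 strain as separate replicates of a class. The same holds for the other class fits below, except where counts were summed per strain. Their SE, intervals and p-values can therefore be too narrow.

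Among the ligands, Ccl2 ranged from 278.6 to 1225 CPM (median 752.1) in responder and from 550.5 to 1675 (median 914.1) in non-responder tumors. 16 of 20 responder tumors lay below the non-responder median. The difference was −0.38 ± 0.16 (95% interval −0.69 to −0.07) and did not pass after adjustment (adjusted p = 0.161). Ccl7 had medians of 429 and 559 CPM (−0.24 ± 0.21, interval −0.66 to 0.17, adjusted p = 0.583), and Ccl12 medians of 441.2 and 443.5 CPM (−0.26 ± 0.24, interval −0.73 to 0.22, adjusted p = 0.623). Ccl8 alone had a higher median in responder tumors, 150.7 against 91.89 CPM, with ranges of 21.8 to 569 and 20.21 to 236.1 that overlapped (0.68 ± 0.35, that is 1.6-fold with an interval of 0.998 to 2.58, adjusted p = 0.275).

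**Figure D2:**
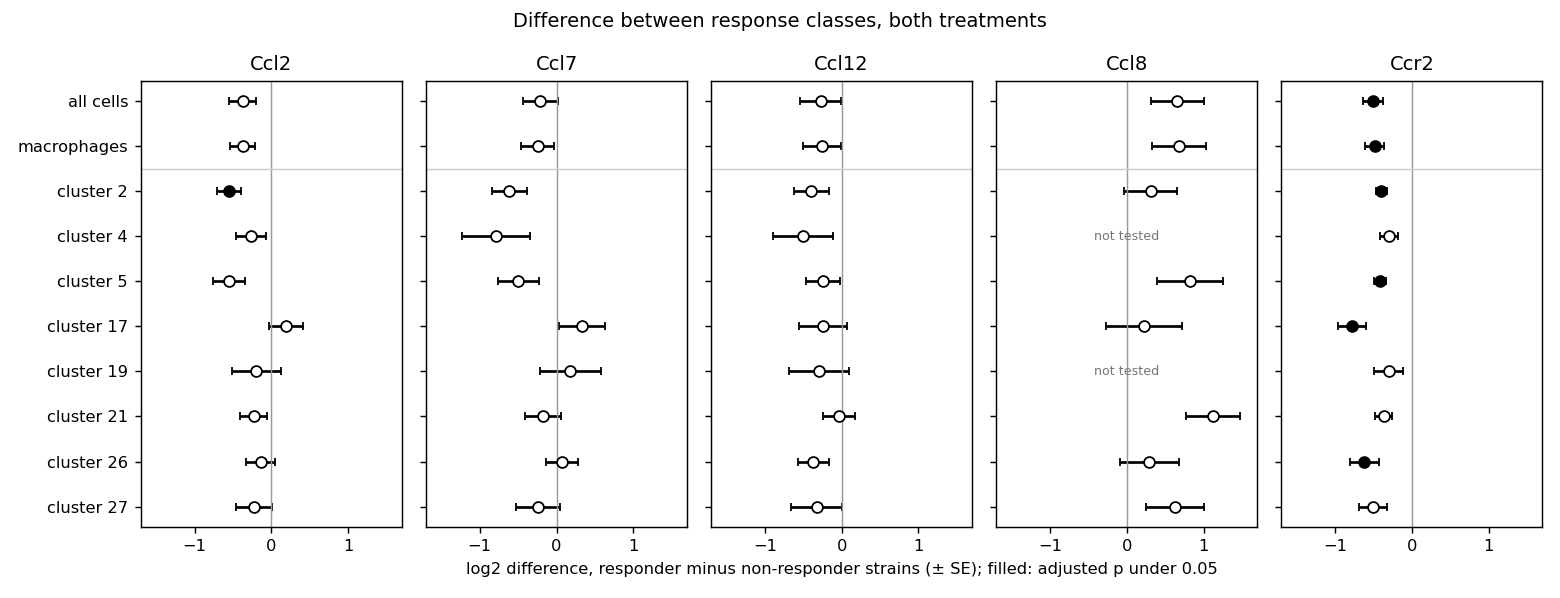
Log2 difference of each gene on the x axis, responder minus non-responder strains, with its SE, in the summed macrophages, in all cells and in single macrophage clusters (rows); filled points have an adjusted p under 0.05. Ccr2 lies below 0 in every row, from −0.78 in cluster 17 to −0.29 in cluster 4, Ccl12 lies below 0 and Ccl8 above 0 without passing, and Ccl2 and Ccl7 lie on both sides of 0.

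The difference in Ccr2 was present with each antibody. In isotype tumors Ccr2 had a median of 322.1 CPM (range 224.1 to 598.4) in responder and 513.6 (280.2 to 679.4) in non-responder strains, and in aPD1 tumors 327.0 (253.9 to 502.5) and 500.6 (255.2 to 642.0). The fitted difference was −0.48 in both, with an adjusted p of 0.445 in isotype tumors, where 0.278% of genes were called (0.152% lower in responder strains), and 0.0914 in aPD1 tumors, where 6.44% were called and 2.1% were called lower in responder strains. Exact two-sided permutation tests of log2(CPM + 1) gave p = 0.021 (10 against 9 isotype tumors) and p = 0.0042 (10 against 9 aPD1 tumors), not adjusted over the 10 such tests of the 5 genes. They shuffle the class over single tumors, although the class is fixed by strain. Tumors of 1 strain therefore count as separate replicates of a class, as they do in the fit. In aPD1 tumors these exact tests gave p = 0.0248 for Ccl2 (medians 636.2 and 1000 CPM) and p = 0.0321 for Ccl8 (medians 161.4 and 72.74 CPM). The fit called neither (adjusted p = 0.131 and 0.143). In isotype tumors the exact p was 0.243 or more for each of the ligands.

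How far the Ccr2 difference rests on single strains or pools was examined further. Leaving out each of the 38 tumors in turn kept it called in 38 of 38 fits, with values from −0.54 to −0.44. Without CC001 it was −0.36 (adjusted p = 0.0761) and without CC080 −0.34 (adjusted p = 0.136), so the call is lost without either strain. With counts summed per strain, 3 against 3, the value was −0.44 with an adjusted p of 0.922, and only 3 genes of the whole table were called. The medians of the 3 responder strains all lay below those of the 3 non-responder strains for Ccr2, 1 of the 5 members, as for 7.98% of 12088 genes of at least 1 CPM on average. For 0 of the 5 did they all lie above, as for 3.52% of these genes. Pools 1 to 5 alone gave −0.60 (adjusted p = 0.0498) and pools 8 to 12 alone −0.40 (adjusted p = 0.195). In the 8 pools that held both classes, Ccr2 was lower in the responder tumors in 7, by 0.54 on average (log2 scale, SD 0.40; exact permutation over pools p = 0.0156, smallest possible 0.00781). The exception was pool 2, where all 4 tumors, of CC001 and CC079, had 255.2 to 280.2 CPM. The pools reuse strains: CC001 and CC079 share pools 1 and 2, and CC075 and CC036 share pools 9 and 10. The permutation over pools takes the 8 pools as independent, although the class is fixed by strain.

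Without CC001 the ligand picture also changed. The difference in Ccl2 became −0.72 (adjusted p = 0.00702) and that in Ccl7 −0.76 (adjusted p = 0.027), both called, where 7.81% of genes were called and 3.01% were called lower. Without CC002 Ccl8 became 1.05 (adjusted p = 0.0453), where 5.99% were called and 3.57% were called higher. Each of these calls was absent with all 6 strains.

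Within clusters, Ccr2 was lower in responder strains in each of the 8 macrophage clusters with enough tumors, and passed in 4. In cluster 2 it ranged from 311.5 to 635.4 CPM (median 453.3) in responder and from 468.5 to 731.1 (median 645.3) in non-responder tumors, a difference of −0.40 ± 0.07 (adjusted p = 0.000682; 3.83% of genes called, 1.51% lower in responder strains). In cluster 5 the medians were 584.2 and 797.5 CPM (−0.42 ± 0.08, adjusted p = 0.000917; 4.3% of genes called, 1.38% lower). Cluster 17, led by histone genes, gave −0.78 ± 0.19 (medians 166 and 334.2 CPM, adjusted p = 0.024) and cluster 26 −0.62 ± 0.19 (medians 181.2 and 319.3 CPM, adjusted p = 0.0371), with 1.34% and 7.59% of genes called (0.409% and 2.79% lower). Clusters 4, 19, 21 and 27 gave −0.29, −0.30, −0.37 and −0.50 and did not pass (adjusted p = 0.337, 0.8995, 0.0766 and 0.259), with 0.473%, 0.35%, 1.72% and 0.726% of genes called. Ccl8 passed the filter on low counts in 6 of these 8 clusters. Cluster 9 was not tested, since only 20 tumors had 20 of its cells. The clusters are parts of the same tumors and strains, so their results are not independent repeats. Their fits also take tumors of 1 strain as separate replicates of a class. Fits that left out 1 strain were not run within clusters.

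Ccl2 was also called lower in responder strains in cluster 2, where its median was 846.1 CPM (286.6 to 1278) against 1173 (622.1 to 1987), a difference of −0.55 ± 0.16 (adjusted p = 0.0406). Between aPD1 tumors it was −0.95 ± 0.23 (613.6 against 1226 CPM, adjusted p = 0.00716; 7.7% of genes called, 3.34% lower), and between isotype tumors −0.15 ± 0.23 (1006 against 1103 CPM, adjusted p = 0.9997). The difference between these contrasts, the interaction with aPD1, was −0.80 ± 0.32 and did not pass (adjusted p = 0.481), where 0% of genes were called. In cluster 17 the difference in Ccl2 was above 0 (0.19 ± 0.22, adjusted p = 0.784). Ccl8 was called higher in responder strains in cluster 5 between aPD1 tumors, 2.09 ± 0.59 (adjusted p = 0.0292; 4.7% of genes called, 3.2% higher). The levels were low, with a median of 26.08 CPM (9.463 to 282.4) against 17.16 (0.5953 to 41.8). Leaving out each of the 19 aPD1 tumors in turn, a setting chosen after seeing the data, kept this call in 14 fits (1.63 to 2.31 over the 19). It was lost without the aPD1 tumors of CC001 in pool 12 (1.63, adjusted p = 0.111), CC075 in pool 11 (1.63, 0.0921), CC079 in pool 1 (1.87, 0.058) and pool 2 (2.02, 0.0533) and CC080 in pool 11 (1.92, 0.0582).

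Over all sorted cells of a tumor, whose mixture was set by the sort, Ccr2 was likewise lower in responder strains (−0.51 ± 0.13, adjusted p = 0.0261; 3.2% of 13503 genes called, 1.24% lower), and no ligand was called. Other genes of the pathway are given for the macrophage sums. Of the other C-C chemokines, 9 of 12 listed were tested and 2 were higher in responder strains, Ccl5, a chemokine also made by T and NK cells (1.30 ± 0.32, adjusted p = 0.00974), and Ccl22, a chemokine of mature dendritic cells (1.49 ± 0.47, adjusted p = 0.0466). The average level of Ccl22 in these sums was only 2.26 CPM. Of all genes tested, 4.1% were called higher. The median over the 9 was −0.09, and that over all genes tested −0.0045. Summed T/NK markers in the macrophage sums, 8 of 8 with a count, ranged from 2.42 to 45.9 CPM (median 7.74) in responder and from 2.59 to 25 (median 5.25) in non-responder tumors, and summed cDC2 markers, 5 of 5 with a count, from 43.2 to 186 (median 76.7) and from 40.6 to 249 (median 101). Summed markers of migratory dendritic cells, Ccl22 among them and 6 of 6 with a count, ranged from 9.34 to 50.4 CPM (median 14.8) in responder tumors. In non-responder tumors they ranged from 11.8 to 35.7 CPM (median 17.8). The part of these 3 marker lists in these results, that of cDC2 markers in the Ccr2 difference included, was not tested.

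None of the 5 tested of 11 other C-C receptors and decoys passed. Of 12 monocyte genes, 2 were lower in responder strains, Vcan, a matrix proteoglycan (−0.95 ± 0.29, adjusted p = 0.0363), and Fn1, fibronectin (−0.94 ± 0.15, adjusted p = 6.01e-05), with a list median of −0.24. Of 10 resident-like macrophage genes, 2 were lower, Folr2, a folate receptor (−1.55 ± 0.31, adjusted p = 0.00125), and Mrc1, the mannose receptor (−0.58 ± 0.17, adjusted p = 0.0336), with a list median of −0.45. In the receptor signal chain 1 of 12 was higher, the G protein subunit gene Gng2 (0.20 ± 0.06, adjusted p = 0.026). Of all genes tested, 2.46% were called lower and 4.1% higher. None of 11 tested inducers of Ccl2 and their sensors and none of 4 tested colony stimulating factors and receptors passed.

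A further question was the effect of aPD1 after 48 h. No member passed the test. In macrophages of all 48 tumors, with strain in the model, the log2 difference, aPD1 minus isotype, was −0.03 ± 0.13 for Ccl2 (95% interval −0.28 to 0.22), −0.01 ± 0.15 for Ccl7 (−0.31 to 0.29), −0.07 ± 0.18 for Ccl12 (−0.44 to 0.29), 0.19 ± 0.31 for Ccl8 (−0.41 to 0.79) and 0.02 ± 0.10 for Ccr2 (−0.17 to 0.21). edgeR called 0 of 12510 genes (0%) and DESeq2 0, and 385 had an unadjusted p under 0.05 in edgeR. The upper bounds correspond to 1.16-fold for Ccr2 and 1.73-fold for Ccl8. For Ccl8 the limits within a class were wider, 1.26-fold in responder strains (0.66 to 2.4) and 0.605-fold in non-responder strains (0.304 to 1.2). Within responder strains it was 2.17-fold in cluster 2 (1.14 to 4.13) and 2.81-fold in cluster 5 (1.29 to 6.09), which did not pass after adjustment (adjusted p = 0.331 and 0.362). Ccl8 was also 2.13-fold in cluster 26 of responder strains (1.05 to 4.31), and 0.508-fold in cluster 2 of non-responder strains (0.263 to 0.98). Ccl2 in responder strains was 0.701-fold in cluster 2 (0.518 to 0.948) and 0.629-fold in cluster 4 (0.428 to 0.925). These intervals are not adjusted for the number of genes.

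Over the 24 pairs of an isotype and an aPD1 tumor of 1 strain in 1 pool, the level after aPD1 was higher in 12 pairs for Ccl2, 13 for Ccl7, 9 for Ccl12, 13 for Ccl8 and 11 for Ccr2 (permutation p = 0.692, 0.443, 0.446, 0.484 and 0.834). Within responder and within non-responder strains edgeR also called 0 genes (821 and 91 with an unadjusted p under 0.05). The interaction of class and aPD1 had 0 calls in edgeR, 680 genes at an unadjusted p under 0.05 and 1 call in DESeq2.

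The difference between the classes in the response to aPD1, the interaction, passed for no member. In the macrophage sums the fitted aPD1 effect of each ligand ran in opposite directions in the classes, without passing. In responder strains it was 0.898-fold for Ccl2, 0.914-fold for Ccl7 and 0.847-fold for Ccl12. In non-responder strains it was 1.15-fold, 1.12-fold and 1.25-fold. Ccl8 ran the other way. Its median was 125.0 CPM in responder isotype and 161.4 in responder aPD1 tumors, and 156.3 in non-responder isotype and 72.74 in non-responder aPD1 tumors. The interaction in macrophages was 1.06 ± 0.69 (interval −0.30 to 2.42, adjusted p = 0.868), that is 2.08-fold, against 0.68-fold for Ccl12. Over all cells it was 1.62-fold for Ccl8 and 0.598-fold for Ccl12. Ccl8 was tested in 6 clusters. In clusters 2, 5 and 26 the interaction was 2.09 ± 0.68, 2.54 ± 0.86 and 1.83 ± 0.76, each with an unadjusted edgeR p under 0.05 (0.00362, 0.00503 and 0.021) and an adjusted p of 0.319, 0.548 and 0.844. In clusters 17, 21 and 27 the intervals of the fold held 1 (1.04-fold, 0.273 to 3.99; 1.34-fold, 0.513 to 3.5; 2.3-fold, 0.828 to 6.39). None of the 6 passed, and edgeR called 0 of 9450, 8169 and 9882 genes for the interaction in clusters 2, 5 and 26 (803, 563 and 551 with an unadjusted p under 0.05), so the misses say nothing particular about Ccl8.

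**Figure D3:**
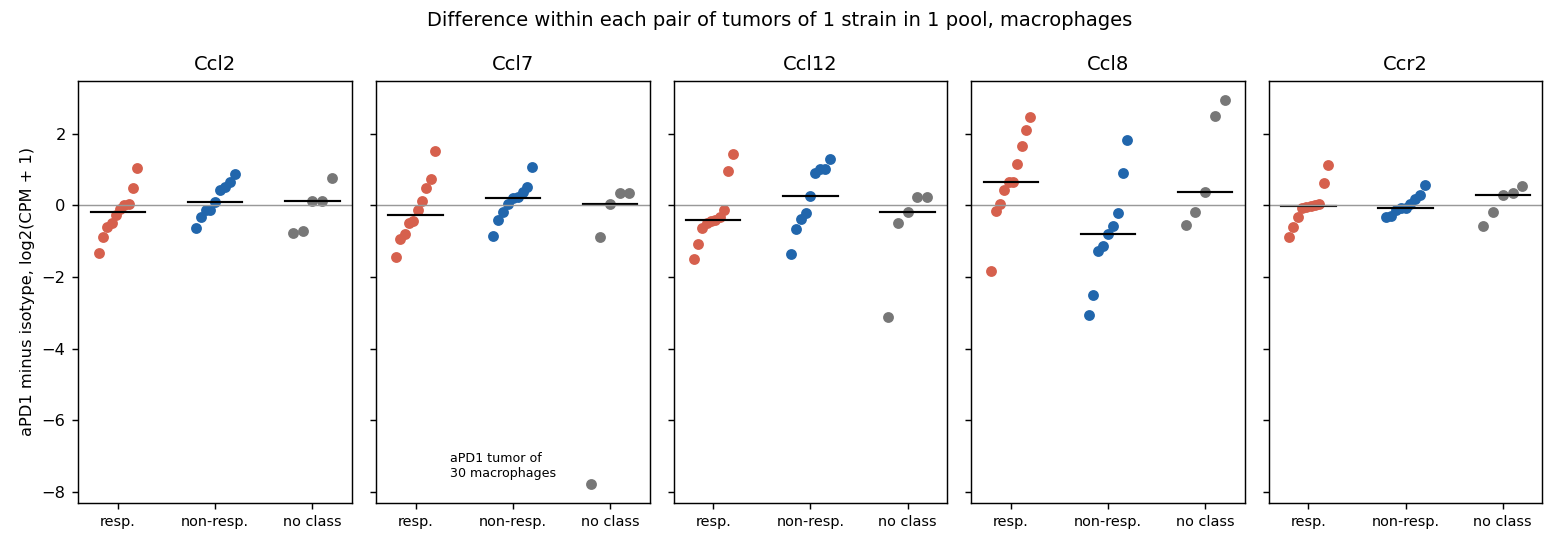
Difference within each of the 24 pairs of tumors of 1 strain in 1 pool, aPD1 minus isotype, as log2(CPM + 1) in macrophages (y axis), by class of the strain (x axis); each point is a pair and each line the median. The points lie on both sides of 0 for every gene, and the lowest Ccl7 and Ccl12 points belong to the pair with the tumor of 30 macrophages.

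The levels differed between host strains. All 5 members passed the test of strain in macrophages (edgeR adjusted p = 0.00753 for Ccl2, 0.00021 for Ccl7, 0.00064 for Ccl12, 0.0134 for Ccl8 and 0.00136 for Ccr2), as did 51.7% of the 12510 genes tested, so that this count says little about the members. Within pools 7 to 12 alone, where 823 genes were called, no member passed, and within pools 1 to 6 Ccl2 (adjusted p = 0.108) and Ccl12 (adjusted p = 0.0918) did not. Each pool holds only some of the strains, and the main strain fits have no pool term, so strain and pool cannot be fully told apart. F1 hosts differ in alleles and reads were aligned to 1 reference, so a sequence difference and a level difference cannot be told apart here.

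CC001 F1 tumors differed from the other strains in 4 of the 5 members. Their Ccl7 ranged from 428.3 to 964.9 CPM (median 640.5), Ccl12 from 350.8 to 1024 (median 591.2) and Ccl8 from 154.0 to 569 (median 164.6), and all 3 were higher than in the other strains, by 0.80 ± 0.19 (adjusted p = 0.00383), 0.77 ± 0.23 (adjusted p = 0.0199) and 1.09 ± 0.36 (adjusted p = 0.0336) on the log2 scale. Ccr2 was lower in CC001, from 224.1 to 502.5 CPM with a median of 268.1, by −0.59 ± 0.14 (adjusted p = 0.0026; 14.4% of genes called in this contrast). Ccl2 did not pass (0.38 ± 0.16, adjusted p = 0.107).

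CC002 F1 tumors, of the same class, had the least Ccl2 (median 516.5 CPM), and their Ccl7 ranged from 101.7 to 361.8 CPM (median 244.6), −0.83 ± 0.25 from the other strains (adjusted p = 0.0379; 4.66% of genes called). Their Ccl8 had a median of 36.09 CPM, and no CC002 tumor exceeded 78.26, below the lowest CC001 tumor; the difference from the other strains was −1.51 ± 0.51 and did not pass (adjusted p = 0.0781). Among non-responder strains, CC080 had the highest median of Ccr2, 619.6 CPM (445.9 to 679.4; 0.50 ± 0.14, adjusted p = 0.0344), and of Ccl7, 703.4 CPM (0.77 ± 0.21, adjusted p = 0.0329), with 2.95% of genes called. CC079 was higher in Ccl12, with 273 to 1580 CPM and a median of 613.5 (0.93 ± 0.26, adjusted p = 0.00695; 27% of genes called). Its tumors were only in pools 1, 2 and 5, and the part of the pools in this difference was not tested. No member was called in the contrasts of B6, CC007, CC036 or CC075 with the other strains, in which 5.28%, 1.2%, 17.3% and 23.8% of genes were called.

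The order of strains by median Ccr2 was CC080 (619.6 CPM), CC007 (502.7), CC036 (481.4), CC079 (477.4), B6 (432.9), CC075 (411.1), CC002 (322.4) and CC001 (268.1), and the ranges of all neighbours overlapped. The 4 CC007 tumors had 458.8, 472.6, 532.7 and 580.2 CPM. For Ccl2 the order was CC080 (1044 CPM), CC001 (978.4), CC079 (913.3), CC036 (877.2), CC075 (661.1), B6 (660.3), CC007 (639.2) and CC002 (516.5), also with overlap between neighbours.

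**Figure D4:**
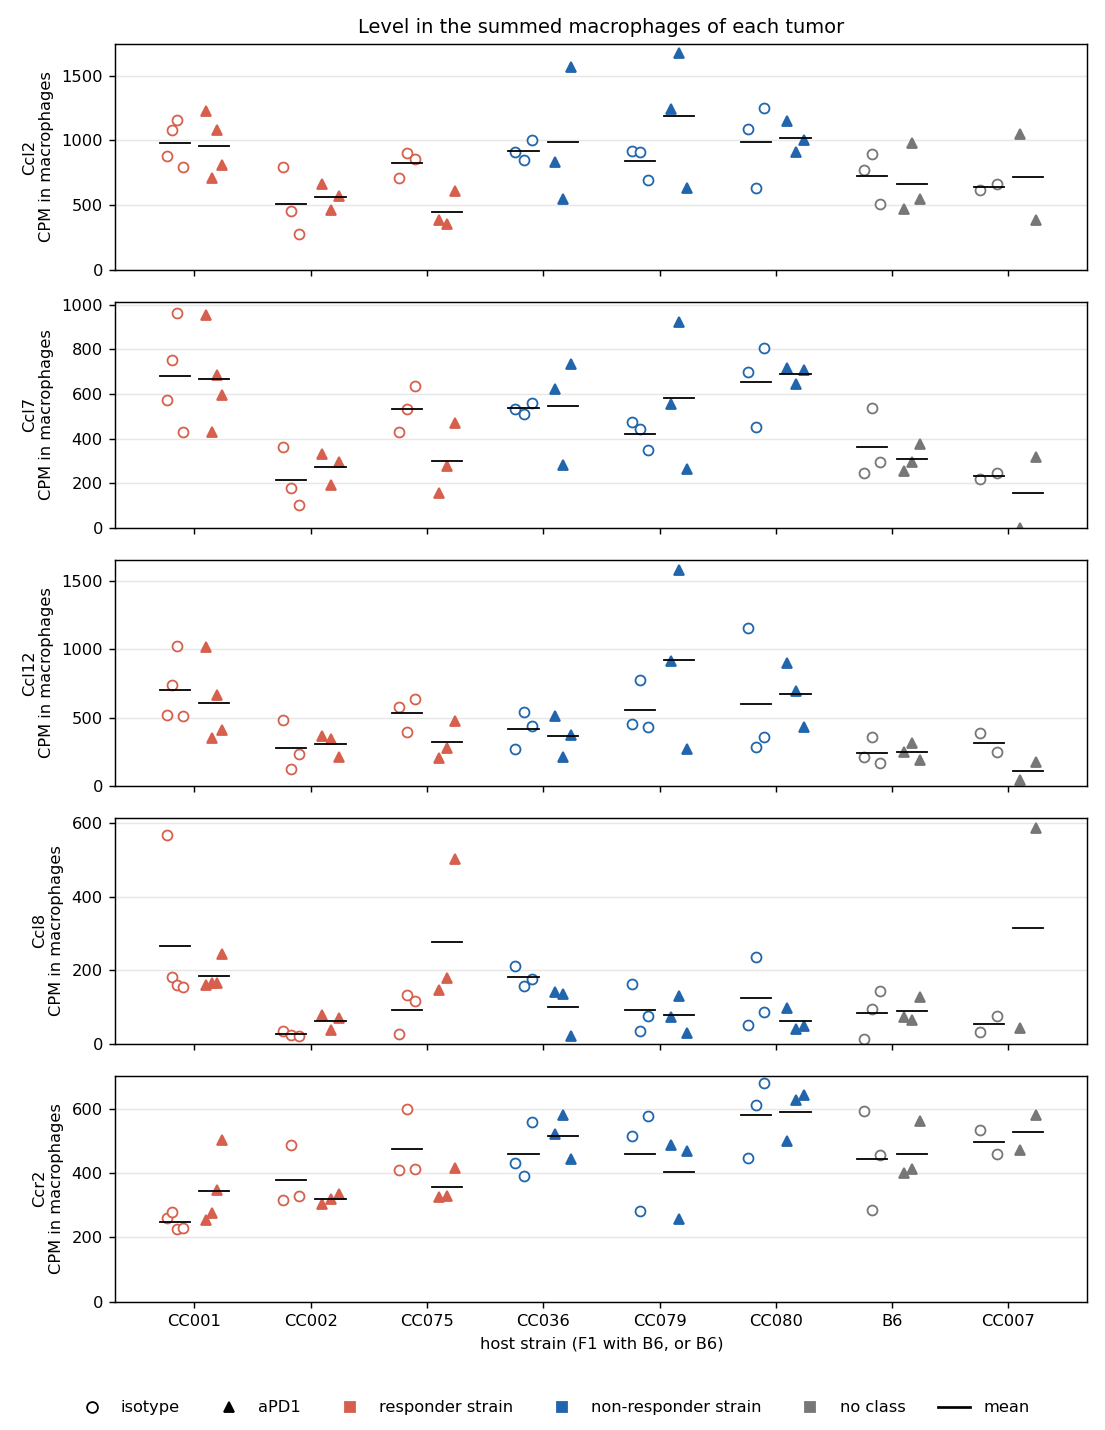
CPM of each gene in the summed macrophages of every tumor (y axis) by host strain (x axis), coloured by class, with isotype as open circles and aPD1 as triangles, and the mean as a line. For Ccr2 the CC001 tumors sit between 224.1 and 502.5 CPM and the CC080 tumors between 445.9 and 679.4, and for Ccl8 single tumors of CC001, CC007 and CC075 reach 503.2 to 586.3 CPM.

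Across the 48 tumors, Ccl2, Ccl7 and Ccl12 varied together in macrophages, and Ccr2 did not follow them. All 10 pairs of members were compared by permutation with 100000 resamples and adjusted over the 10. These p-values treat the tumors as independent, although tumors share strains and pools. Ccl7 and Ccl12 had a Pearson r of 0.76 (adjusted p = 0.0001) and a Spearman rho of 0.76 (adjusted p = 3.33e-05, from an unadjusted 1e-05, the smallest the permutations can give). Ccl2 and Ccl12 had r = 0.58 (adjusted p = 0.00015) and rho = 0.68 (adjusted p = 3.33e-05). Without the 2 tumors farthest from the median of the first gene, r was 0.76 and 0.59. Within pools 1 to 6 and pools 7 to 12, r was 0.84 and 0.65 for Ccl7 and Ccl12, and 0.60 in both for Ccl2 and Ccl12.

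For Ccl2 and Ccl7, r was 0.33 (adjusted p = 0.0613) and rho 0.80 (adjusted p = 3.33e-05). The low r rested on the CC007 aPD1 tumor of pool 6, in which 0 of 46554 macrophage UMIs were Ccl7, which allows up to 64.4 CPM (3 counts; counting error only). Without that tumor r was 0.87 (adjusted p = 3.33e-05), a setting chosen after seeing the data, and without the 2 farthest tumors, which do not include it, 0.28. Within pools 1 to 6, which hold it, r was 0.21 and rho 0.80, and within pools 7 to 12 r was 0.85.

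For Ccl8 the relations differed in value between treatments, a difference that was not tested. With Ccl2, Ccl8 had r = 0.01 and rho = 0.03 over all tumors, r = 0.43 (adjusted p = 0.0568) and rho = 0.45 (adjusted p = 0.0443) in the 24 isotype tumors, and r = −0.34 and rho = −0.27 in the 24 aPD1 tumors (adjusted p = 0.353 and 0.502). With Ccl7 it had r = 0.28 (adjusted p = 0.104) and rho = 0.35 (adjusted p = 0.0406) over all tumors, r = 0.62 (adjusted p = 0.00292) in isotype and 0.21 (adjusted p = 0.602) in aPD1 tumors, 0.36 in pools 1 to 6 (rho 0.63, adjusted p = 0.00285) and 0.11 in pools 7 to 12 (rho −0.03). It passed over all cells (r = 0.45, adjusted p = 0.00347) and, by r but not rho, without the tumor of 30 macrophages (r = 0.35, adjusted p = 0.0417; rho = 0.32, adjusted p = 0.068). Ccr2 and Ccl12 had r = −0.32 and rho = −0.30, which did not pass (adjusted p = 0.0613 and 0.085), with r of −0.39 and −0.07 within pools 1 to 6 and 7 to 12. Without the tumor of 30 macrophages r was −0.34 and passed (adjusted p = 0.0425), while rho did not (−0.30, adjusted p = 0.0849), and in isotype tumors rho was −0.52 (adjusted p = 0.0192) with r at −0.45 (adjusted p = 0.0566). In aPD1 tumors rho was −0.14 (adjusted p = 0.814) and r −0.23 (adjusted p = 0.602), and over all cells r was −0.15 (adjusted p = 0.526). Pools 1 to 6 and pools 7 to 12 hold different sets of strains. With the mean of each strain removed, a setting chosen after seeing the data and given with no test, r was 0.68 for Ccl7 and Ccl12 (rho 0.70), 0.44 for Ccl2 and Ccl12 (rho 0.54), 0.09 for Ccl2 and Ccl7 (rho 0.60) and −0.40 for Ccl12 and Ccr2 (rho −0.44).

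**Figure D5:**
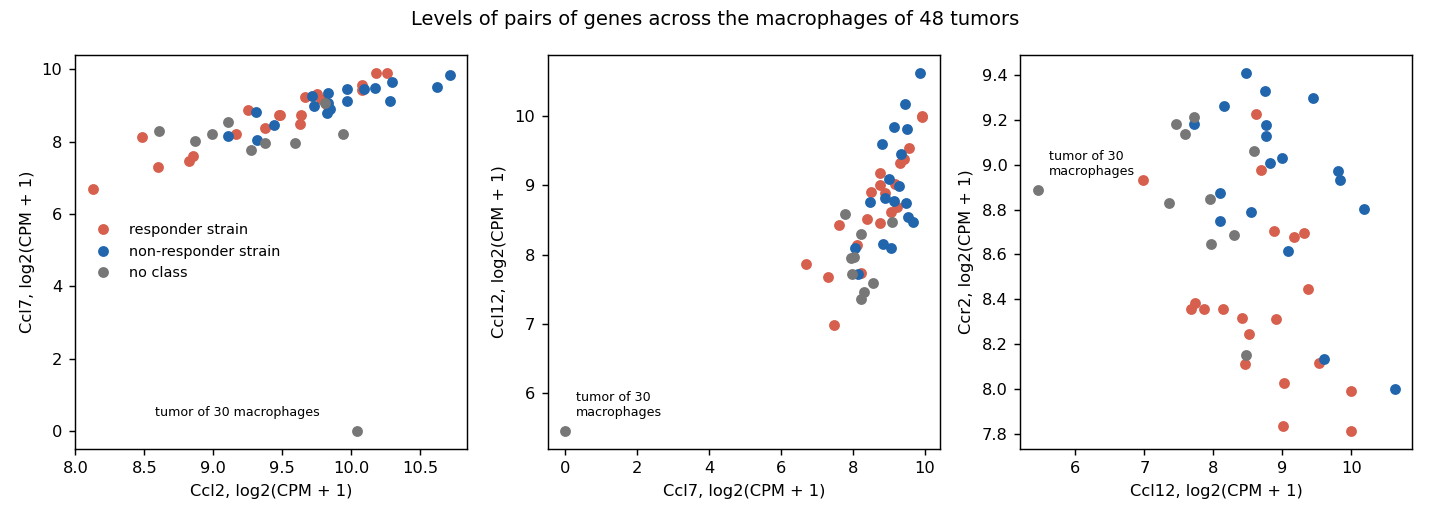
Each point is a tumor, coloured by class, with log2(CPM + 1) of the first gene in macrophages on the x axis and of the second on the y axis. Ccl7 and Ccl12 rise together (r = 0.76), Ccl2 and Ccl7 do so apart from the marked tumor of 30 macrophages at 0 Ccl7 counts, and Ccl12 and Ccr2 fall in a loose cloud (r = −0.32).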

How the data were processed

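The authors deposited UMI counts per gene and cell (5′ chemistry, Cell Ranger, GRCm38 with GENCODE vM23; Seurat 5.0.1 per their processing notes), with hashtag, animal, strain, treatment and cluster per cell. Per the study's methods, cells high in mitochondrial or ribosomal UMIs had been removed. No doublet caller was run here, and the 7883 cells under 1000 UMIs were kept. Clusters were named from marker lists; scoring each by its fold over the mean of the other clusters was chosen after the clusters were seen. Counts were summed per tumor (1 hashtagged specimen of 1 pool), and the tumor was the replicate. edgeR 4.0.16 (TMM, filterByExpr, quasi-likelihood F test; R 4.3.3) was fitted to all genes with Benjamini-Hochberg adjustment and a call at an adjusted p under 0.05: class by treatment for class, strain plus treatment for strain and aPD1. On simulated counts of 11873 genes for the class difference, with 200 changed, it recovered 96% of 2-fold and 83% of 1.5-fold changes, and 6.28% of its calls were false. The simulated tumors were drawn independently and had no strain effect. In the data 51.7% of genes were called for strain and the class is fixed by strain, so these rates do not carry over to the class test. Levels were CPM of summed counts; permutation tests and correlations (scipy 1.17.1) used log2(CPM + 1). Cells were thinned at random to 1000 UMIs for shares. Isotype and aPD1 tumors of 1 strain were paired by the pool in the labels; 16 of 24 pairs had correlated deviations over 0.1 (median 0.227, from −0.226 to 0.544), and the pair block was an alternative. Named were the 5 members, listed pathway genes that passed, and for each member the 3 genes of highest Pearson correlation over clusters. Members and lists were chosen with earlier results of these data known. Intervals cover 95%, and those on shares and the limit for a count of 0 cover counting error only. Hashtag sequences, given in a separate table, did not enter. One other receptor gene is not reported here.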

Additional observations from a re-analysis of the deposited data

Results flagged for a closer look

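In 70 groups of 4 to 10 tumors (5 genes by class and treatment or by strain, in macrophages), 11 groups had 1 tumor far from the others by Dixon's test at 95%, where chance gives about 1 in 20 for independent, normally distributed groups. These are CPM values, and each tumor is in a group by class and treatment and in one by strain, so that rate does not carry over. All 11 were the highest tumor of their group. For 7 of these groups the gene was Ccl8, and the highest tumors of these groups were only 4 different tumors. The CC007 aPD1 tumor of pool 7 had 586.3 CPM, against 127.5 for the next among the aPD1 tumors of no class and 75.62 for the next CC007 tumor. The CC001 isotype tumor of pool 1 had 569 CPM, against 182.4 for the next responder isotype tumor and 244 for the next CC001 tumor. The CC075 aPD1 tumor of pool 11 had 503.2 CPM, against 244 for the next responder aPD1 tumor and 178.3 for the next CC075 tumor, and the CC080 isotype tumor of pool 4 had 236.1 CPM against 96.38 within CC080. These 4 tumors had 849, 841, 1223 and 1211 macrophages.

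For 3 groups the gene was Ccr2, each within a responder strain: the CC001 aPD1 tumor of pool 12 (502.5 CPM, next 347.6), the CC002 isotype tumor of pool 5 (486.6, next 333.4) and the CC075 isotype tumor of pool 10 (598.4, next 416.6). Ccl7 had 538.2 CPM in the B6 isotype tumor of pool 7, against 294.6 in the next isotype tumor of no class. No cause of these values was tested.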

How the results depend on the processing

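Class differences here are log2 values, responder minus non-responder. Without each of the 38 tumors in turn, Ccr2 was called every time (−0.54 to −0.44), Ccl2 ran from −0.44 to −0.32, Ccl7 from −0.35 to −0.19, Ccl12 from −0.38 to −0.11 and Ccl8 from 0.41 to 0.76, none of these 4 called, and 630 to 875 genes were called against 779. Ccr2 kept its direction but missed the threshold in pools 8 to 12 (−0.402), without CC001 (−0.358), without CC080 (−0.342), summed per strain (−0.440) and in clusters 4 (−0.294), 19 (−0.301), 21 (−0.367) and 27 (−0.502) alone. The count was 331 in pools 1 to 5, 332 in pools 8 to 12 and 3 summed per strain; these fits hold fewer samples. Ccl2 passed without CC001 (−0.720) and in cluster 2 (−0.551), and turned in cluster 17 (0.191). Ccl7 passed without CC001 (−0.756) and turned in pools 1 to 5 (0.014), without CC002 (0.013) and in clusters 17 (0.334), 19 (0.178) and 26 (0.069). Ccl12 turned in pools 8 to 12 (0.043), and Ccl8 passed without CC002 (1.051). In isotype tumors alone, where the fit gave 1.02-fold for Ccl12 and 1.11-fold for Ccl8, the means behind the permutation test lay below 0 (−0.039 and −0.391).

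With the pool as a replicate block Ccr2 stayed called (−0.497). With the pair as a replicate block no gene was called for aPD1, the interaction of class and aPD1 called 1 gene, as did DESeq2, and that of Ccr2 turned (0.030); the block changed no member's call.

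None of the members was called for aPD1 in any setting. Its sign turned in pools 1 to 6 for Ccl2 (0.117), Ccl7 (0.086), Ccl12 (0.178), Ccl8 (−0.150) and Ccr2 (−0.100), over all cells for Ccl2 (0.039) and Ccl7 (0.072), and for Ccl7 with no filter (0.0041), in tumors of 500 cells or more (0.033) and without the repeated animal (0.0004). Strain differences, called for 6464 genes, were called for 2224 in pools 1 to 6 and 823 in pools 7 to 12, splits chosen after seeing the data.

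Correlations turned in pools 7 to 12 for Ccl2 with Ccl8 (−0.21), Ccl2 with Ccr2 (0.29), Ccl7 with Ccr2 (0.40), Ccl12 with Ccl8 (−0.10) and Ccl8 with Ccr2 (0.13). Over all cells they turned for Ccl2 with Ccr2 (0.09) and Ccl7 with Ccr2 (0.07), and for Ccl2 with Ccl8 in aPD1 tumors (−0.34) and without the 2 farthest tumors (−0.06). With strain means removed they turned for Ccl2 with Ccl8 (−0.26) and Ccl12 with Ccl8 (−0.04). Apart from the smaller fits, the cause of these changes was not tested.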
